A study of Homo sapiens with 49 samples.

Results

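The 46 genes described here encode kinases, sensors and enzymes of the DNA damage checkpoint and of DNA repair, and were chosen by name. Each was read from the probe sets annotated to that gene alone, and where several existed the one with the highest mean over the 49 arrays was used. Of the 46 genes, 41 had such a probe set, out of 19775 genes in all and with 104 of the 41097 single-gene probe sets. BRCA2, FANCA, FANCD2, RBBP8 and NHEJ1 were not analysed here.

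The arrays held RNA of 6 lines, U2932, RIVA, OCI-Ly7, SU-DHL-5, NU-DHL-1 and FARAGE, which were derived from a malignancy of B cells, diffuse large B-cell lymphoma, and were left untreated or exposed to doxorubicin. This drug, an anthracycline, slips between base pairs and holds topoisomerase II on the strand breaks that the enzyme makes. All 6 lines had untreated arrays at 0, 2 and 12 h, and 3 lines (OCI-Ly7, RIVA and U2932) also at 48 h. Cells at the low dose of 0.00061 µg/mL were profiled at 2 h and 12 h in 6 lines and at 48 h in the same 3 lines. Cells at the high dose of 2.5 µg/mL were profiled at 2 h in 6 lines, at 12 h in 5 lines (without SU-DHL-5) and at 48 h in 2 lines (RIVA and U2932). Each line gave 1 array per dose and time, and nothing in the labels says that cultures were repeated, so a p-value of a dose or time comparison measures the spread between lines. Each line is a single established tumour line, and the lines stand for themselves and not for patients.

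Values are log2 intensities after RMA, a method that brings the arrays to one common distribution, so that a difference of 1 is a 2-fold change in intensity. Differences were taken within each line against the untreated array of the same time, and a gene was called when the limma test with the line as a block gave an adjusted p below 0.05 over all 19775 genes. The 5 measured B cell markers averaged 10.9 to 11.5 in the untreated lines at 12 h, and 4 of the 5 (CD79B, CD22 and PAX5 among them) were lower after 12 h at the high dose, where the lines averaged 9.79 to 11.0. The marker sets of T cells, myeloid cells, fibroblasts and epithelial cells averaged between 4.13 and 5.74 in the untreated lines at 12 h. One marker went against this pattern: EPCAM, an epithelial adhesion molecule, had untreated means of 8.94 in RIVA and 9.69 in U2932 and of 2.79 to 3.37 in the other lines. At the high dose, 2 of 5 T cell, 2 of 4 myeloid, 0 of 5 fibroblast and 2 of 5 epithelial markers were called higher at 12 h, and their part in the results below was not tested.

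A break in DNA is bound by the MRE11-RAD50-NBN complex, which brings ATM to it, while single-stranded DNA at a stalled fork brings ATR with TOPBP1 and claspin (CLSPN). These kinases activate the effector kinases CHEK2 and CHEK1, which hold the cell cycle. The break is then rejoined by end joining, in which the Ku proteins XRCC5 and XRCC6, DNA-PKcs (PRKDC), XRCC4 and LIG4 act at any stage of the cycle, or copied from the sister chromatid by homologous recombination, which needs resection, BRCA1 with BARD1, and PALB2. Fanconi proteins handle cross-links, excision repair removes damaged bases and adducts, and mismatch repair corrects replication errors. Most of this machinery is regulated on existing proteins, by phosphorylation and ubiquitin, and the arrays measure only messenger RNA.

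At 12 h of the high dose, messages of checkpoint and repair genes were broadly lower. Of the 41 genes, 21 were called lower and 0 higher, where 14.7% of all genes were called lower, 18.2% higher and 32.8% either way. The median over the 41 genes was -0.73 against 0.20 over all genes, 36 of the 41 had a mean below 0, and 17 had fallen at least 2-fold on average. In 22 genes the difference was below 0 in every line, against 15.3% of all genes, and in 6 genes every treated level lay below every untreated level, against 5.38%. In bulk RNA, fewer cells of a type and less RNA per cell cannot be told apart.

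Counts and medians ranged widely between the pathways. Homologous recombination had 8 of 9 genes called lower with a median of -1.68, the checkpoint kinases and their activators 5 of 6 with a median of -0.98, and break sensing and chromatin response 3 of 7 with a median of -0.73. Excision and single-strand break repair had 4 of 9 called lower with a median of -0.25, end joining 1 of 5 with a median of -0.01, Fanconi 0 of 4 with a median of -0.56, and the only mismatch gene, MSH6, was not called at -0.67. These counts describe the 41 genes, no gene was counted in more than 1 pathway, and the pathways were not tested against each other.

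**Figure D1:**
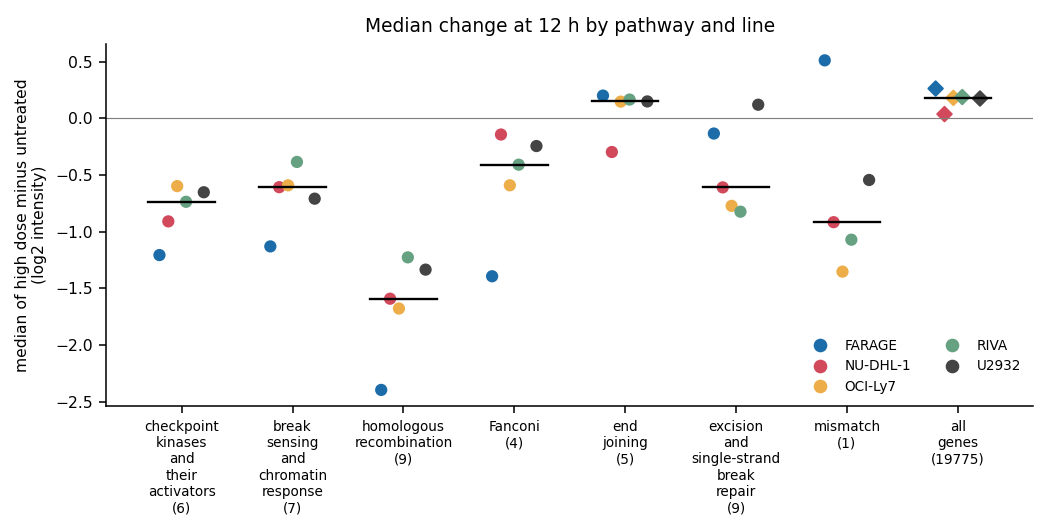
Median difference between the high dose and untreated at 12 h (log2 intensity, vertical axis) over the genes of each pathway (number of genes in brackets) in each of 5 lines, with all 19775 genes at the right as diamonds. The bar is the median of the 5 lines. In homologous recombination all 5 lines lie below -1, while in end joining 4 of the 5 lie between 0 and 0.5 and NU-DHL-1 lies below 0.

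The size of the shift differed between lines. The median over the 41 genes at 12 h was -1.27 in FARAGE, -0.86 in NU-DHL-1, -0.77 in RIVA, -0.59 in OCI-Ly7 and -0.52 in U2932, with 24, 16, 17, 15 and 14 genes at least 2-fold lower. The count of genes called lower was 8 without OCI-Ly7 (8.01% of all genes), 8 without RIVA (7.55%) and 10 without U2932 (8.45%), against 21 with all 5 lines. 8 genes (BARD1, CHEK2, ERCC4, NBN, PARP2, RAD50, RAD52 and WRN) were called without each of the 5 lines in turn, and the other 13 lost the call without at least 1 line.

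Other measures moved at the same arrays. Of 16 mitosis marker genes 12 were called lower at 12 h (median -1.83), with BUB1B, a spindle checkpoint kinase, at -4.00 and KIF11, a spindle motor, at -3.83, and of 17 S phase marker genes 4 were called lower and 1 higher (median -0.11). The probe sets of the poly-A controls, RNAs that this platform adds before labelling, were 1.30 (OCI-Ly7) to 2.54 (NU-DHL-1) higher on the treated arrays. The 3' to 5' difference of actin, a sign of RNA integrity, was 0.09 to 0.73 higher, and that of GAPDH differed by -0.05 to 0.18. Without drug, the actin difference changed by -0.25 to 1.08 between 0 h and 12 h (6 lines). On values scaled to the poly-A controls the median of all genes was -1.59, that of the 41 genes -2.52, and all 41 were called lower, among 19138 genes called in all. The part of cell cycle stage, RNA amount and RNA integrity in these falls was not tested, so that a fall below refers to the common distribution of the arrays.

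The promoters were looked at because the genes fell together with different depth. The 250 bases before the RefSeq start (GRCh38.p14) were found for 36 of the 41 genes and searched on both strands for the NF-Y word CCAAT, the E2F words TTTGGCGC, TTTCCCGC, TTTGGCGG and TTTCCCGCC (which overlap each other), the CHR words TTTGAA and TTCGAA, and the GC box GGGCGG. In this paragraph all genes are the 27305 genes with a RefSeq promoter, on the array or not, and not the 19775 used elsewhere. The NF-Y word was in 19 of the 36 (52.8%, against 37.0% of all genes), in 8 of the 19 genes called at 12 h and in 11 of the 17 others. An E2F word was in 2 of the 36 (5.56% against 2.99%), LIG1 and RNF168, neither of them called. CHR words were in 7 (19.4% against 17.2%), in 2 of the 19 called genes and in 5 of the 17 others. A GC box was in 28 (77.8% against 46.2%), in 13 of the 19 called genes and in 15 of the 17 others. A match is a description of letters, not of a bound site. The 3 promoters below, 5' to 3' on the gene's strand, are those of the most affected checkpoint kinase with 3 CCAAT words (read as ATTGG), of the recombination gene with the largest fall and no such word, and of the gene with the highest mean difference at 12 h, with capitals marking NF-Y and E2F words.
CHEK2, chr22:28741821-28742070, minus strand: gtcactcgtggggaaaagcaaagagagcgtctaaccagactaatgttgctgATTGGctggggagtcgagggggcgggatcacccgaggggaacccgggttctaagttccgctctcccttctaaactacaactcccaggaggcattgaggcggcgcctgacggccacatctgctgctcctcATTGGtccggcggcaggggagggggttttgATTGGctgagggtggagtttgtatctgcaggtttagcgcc
BARD1, chr2:214809684-214809933, minus strand: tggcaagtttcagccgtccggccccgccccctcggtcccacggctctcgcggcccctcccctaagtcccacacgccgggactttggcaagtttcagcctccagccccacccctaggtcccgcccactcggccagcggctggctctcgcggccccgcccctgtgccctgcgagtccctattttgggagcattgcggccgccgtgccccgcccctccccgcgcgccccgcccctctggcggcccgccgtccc
LIG1, chr19:48170345-48170594, minus strand: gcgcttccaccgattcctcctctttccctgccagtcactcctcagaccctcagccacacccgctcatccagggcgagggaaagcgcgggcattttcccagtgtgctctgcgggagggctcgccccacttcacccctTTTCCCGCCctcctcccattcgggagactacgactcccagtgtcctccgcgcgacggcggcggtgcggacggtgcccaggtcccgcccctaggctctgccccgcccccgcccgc

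CHEK2, the effector kinase downstream of ATM, had the lowest mean difference of the checkpoint kinases. Its level went from 7.89 to 6.38 in FARAGE, from 8.03 to 5.36 in NU-DHL-1, from 8.73 to 6.61 in OCI-Ly7, from 8.46 to 5.97 in RIVA and from 8.46 to 6.20 in U2932. Every treated level at 12 h was below every untreated one, with a mean difference of -2.21 ± 0.24 (SE, n = 5 lines, adjusted p = 0.00167). At 2 h the same gene had differed by -0.02 ± 0.06 (n = 6, adjusted p = 0.906), and the change of the effect from 2 h to 12 h was -2.19 ± 0.24 (adjusted p = 0.00173). CHEK2 has truncated pseudogene copies in the genome and had 1 single-gene probe set, so that the reading may include other transcripts.

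CHEK1, the effector kinase downstream of ATR, fell too, with a mean closer to 0. It went from 10.1 to 9.16 in FARAGE, from 8.71 to 6.85 in NU-DHL-1, from 9.73 to 9.17 in OCI-Ly7, from 9.35 to 8.56 in RIVA and from 8.96 to 8.16 in U2932, a mean of -0.98 ± 0.25 (adjusted p = 0.0228). NU-DHL-1 showed by far the largest step, and treated and untreated levels overlapped between lines. Of the other CHEK1 probe sets above the median level of all genes, 1 read -1.15 with 5 of 5 lines lower and 1 read -0.39 with 4 of 5 lower. TOPBP1 (-1.20 ± 0.34, adjusted p = 0.0307) and CLSPN (-0.98 ± 0.26, adjusted p = 0.0244), which help ATR act on CHEK1, were called lower as well, but a second CLSPN probe set above the median level of all genes read 0.61 higher, in 5 of 5 lines.

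Of the apical kinases ATR was called at 12 h and ATM was not. ATM had treated minus untreated values of 0.07 in FARAGE, -0.37 in NU-DHL-1, -0.17 in OCI-Ly7, -0.47 in RIVA and -0.15 in U2932, which did not pass the test (-0.22 ± 0.19, adjusted p = 0.369). ATR went from 10.2 to 9.34 in FARAGE, from 9.84 to 9.14 in NU-DHL-1, from 9.71 to 9.51 in OCI-Ly7, from 10.0 to 9.49 in RIVA and from 10.8 to 10.1 in U2932, and was called (-0.59 ± 0.19, adjusted p = 0.0429), with the smallest step in OCI-Ly7. The difference between the CHEK2 and ATM values was not tested. At 48 h ATM differed by -1.93 in RIVA and -0.79 in U2932, without passing the test (-1.36 ± 0.54, adjusted p = 0.112).

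**Figure D2:**
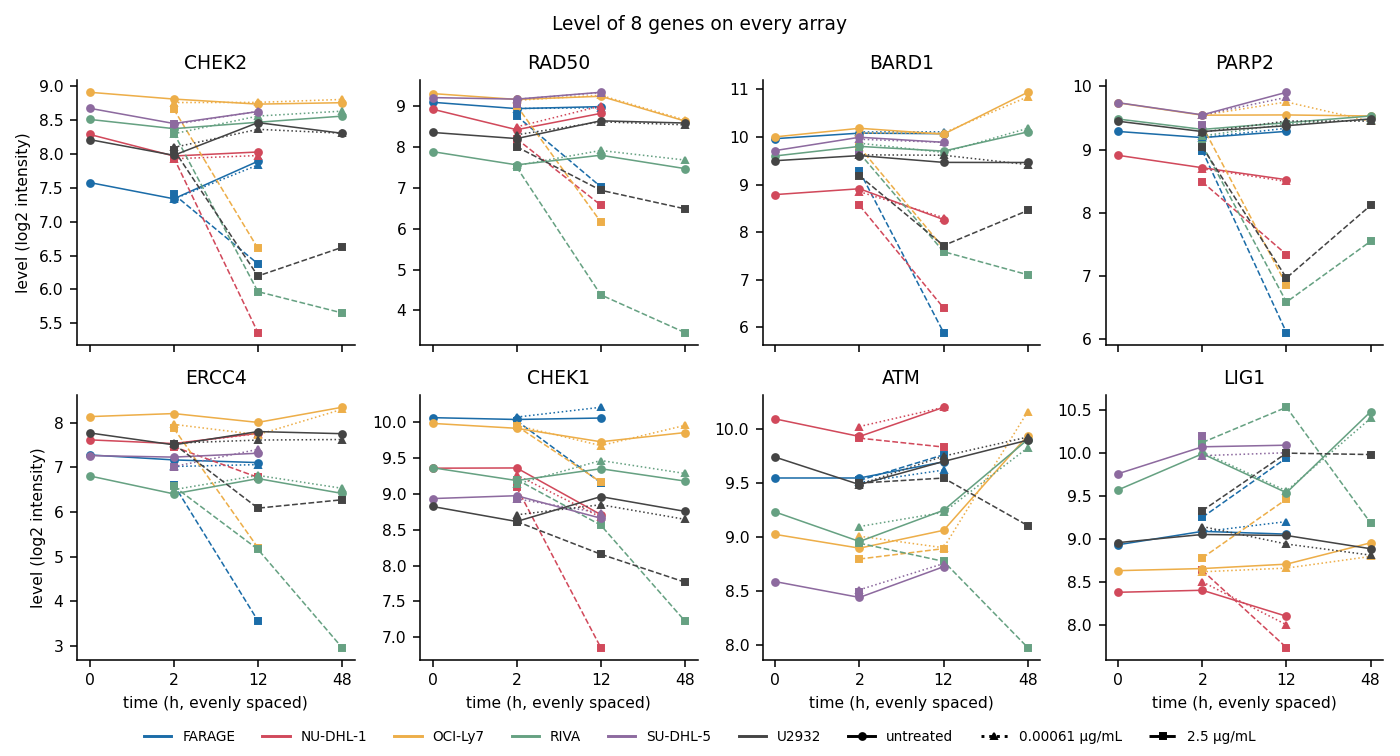
Level (log2 intensity, vertical axis) of 8 genes on every array against time (h, evenly spaced and not to scale), by line (colour) and dose (circles and solid lines untreated, triangles 0.00061 µg/mL, squares and dashed lines 2.5 µg/mL). CHEK2, RAD50, BARD1 and PARP2 lie close to the untreated level at 2 h and below every untreated level at 12 h at 2.5 µg/mL, ATM changes little before 48 h, and LIG1 is higher at 12 h in 4 of 5 lines.

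Among the first responders at a break, the MRE11-RAD50-NBN complex, all 3 subunits were called lower at 12 h. RAD50, the ATPase that tethers the ends, went from 8.98 to 7.02 in FARAGE, from 8.81 to 6.57 in NU-DHL-1, from 9.23 to 6.16 in OCI-Ly7, from 7.79 to 4.38 in RIVA and from 8.63 to 6.94 in U2932. Its mean fall was the largest of the 41 genes, just ahead of PARP2 and BARD1 (-2.47 ± 0.30, adjusted p = 0.00221), and the treated and untreated levels did not overlap. A second RAD50 probe set read -1.57 and was lower in 5 of 5 lines, while another read -0.23 and was lower in 3 of 5. NBN, which recruits ATM, differed by -1.68 ± 0.35 (adjusted p = 0.0118), with -0.30 in FARAGE and -2.60 in NU-DHL-1 at the ends of its range. MRE11, the nuclease, differed by -0.73 ± 0.23 (adjusted p = 0.0427). As the mean of all its probe sets MRE11 was called no longer (-0.12, adjusted p = 0.480). Its other probe sets, which read 0.09 and 0.28, had mean levels of 5.08 and 2.99, below the median level of all genes (5.83).

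The chromatin responders gave a weaker pattern. MDC1, the scaffold that reads phosphorylated H2AX, differed by -0.73 (adjusted p = 0.0569), RNF168 by -1.14 (adjusted p = 0.0615), RNF8 by -0.29 (adjusted p = 0.379) and TP53BP1, which steers breaks to end joining, by -0.45 (adjusted p = 0.125). RNF168, the ligase that spreads ubiquitin on chromatin, ranged from -3.06 in FARAGE to -0.07 in OCI-Ly7. H2AX itself, which is not among the 41, was called lower at 2 h (-0.56 ± 0.04, 6 of 6 lines, adjusted p = 2.5e-05) and at 12 h (-2.11 ± 0.31, 5 of 5 lines, adjusted p = 0.00372), but not at 48 h (-0.68 ± 0.43, adjusted p = 0.308).

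In homologous recombination, 8 of 9 genes were called lower at 12 h and the same 8 had means more than 2-fold below the untreated arrays. BARD1, the partner of BRCA1 in its ubiquitin ligase, went from 10.1 to 5.89 in FARAGE, from 8.26 to 6.41 in NU-DHL-1, from 10.1 to 7.66 in OCI-Ly7, from 9.70 to 7.59 in RIVA and from 9.46 to 7.72 in U2932 (-2.46 ± 0.37, adjusted p = 0.00409). The groups did not overlap, and FARAGE stood apart with -4.18. The 2 other BARD1 probe sets gave smaller falls, -1.51 and -1.55, each with 5 of 5 lines lower. BRCA1 differed by -1.16 ± 0.26 (adjusted p = 0.0147), between -1.92 in FARAGE and -0.38 in U2932.

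RAD52, a strand annealing protein, went from 5.58 to 4.02 in FARAGE, from 6.32 to 4.17 in NU-DHL-1, from 6.15 to 3.94 in OCI-Ly7, from 5.72 to 3.94 in RIVA and from 6.50 to 4.11 in U2932. The 5 lines lay between -2.38 and -1.56, with a mean of -2.02 ± 0.17 (adjusted p = 0.00105) and no overlap. All 5 treated levels, 3.94 to 4.17, were near the bottom of the scale, which limits the size and spread that can be read. WRN, the helicase missing in Werner syndrome, differed by -1.68 ± 0.27 (adjusted p = 0.00526), with -2.70 in NU-DHL-1 and -1.23 to -1.77 in the other lines, again without overlap. BLM, the helicase missing in Bloom syndrome, went from 9.71 to 7.18 in FARAGE, from 8.57 to 6.85 in NU-DHL-1, from 9.44 to 7.76 in OCI-Ly7 and from 9.71 to 7.88 in RIVA, but from 10.0 to 10.1 in U2932 (-1.54 ± 0.36, adjusted p = 0.0172).

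RAD51C, a protein of homologous recombination, fell in 4 lines and not in the other one. It went from 9.66 to 7.27 in FARAGE, from 10.4 to 7.34 in OCI-Ly7, from 10.1 to 7.70 in RIVA and from 9.62 to 7.71 in U2932, but from 8.68 to 9.37 in NU-DHL-1 (-1.80 ± 0.49, adjusted p = 0.0276). The other RAD51C probe set gave smaller falls, -0.63 at 12 h with 4 of 5 lines lower and -1.62 at 48 h. PALB2, which joins BRCA1 to BRCA2, differed by -4.86 in FARAGE and by -0.46 to -1.34 in the other 4 lines (-1.77 ± 0.58, adjusted p = 0.0479). EXO1, a resection nuclease, differed by -1.23 (adjusted p = 0.0429), and RAD54L, a chromatin motor of strand exchange, by -0.72 without passing the test (adjusted p = 0.0700).

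None of the 4 genes placed in the Fanconi group was called at 12 h. Genes of other groups that also act in this pathway, such as BRCA1, PALB2, RAD51C and ERCC4, were not counted among the 4. FANCM, the helicase that anchors the Fanconi complex, went from 8.01 to 4.12 in FARAGE, from 7.27 to 6.35 in OCI-Ly7, from 7.32 to 5.41 in RIVA and from 6.53 to 5.09 in U2932, but from 6.63 to 7.45 in NU-DHL-1 (-1.47 ± 0.56, adjusted p = 0.0701). FANCI, which is clamped on DNA with FANCD2, showed the opposite arrangement: 0.63 in FARAGE, 0.19 in OCI-Ly7, 0.53 in RIVA and 0.33 in U2932 against -1.27 in NU-DHL-1 (0.08 ± 0.28, adjusted p = 0.823). Without NU-DHL-1, FANCM was called lower (-2.04, adjusted p = 0.0165) and FANCI higher (0.42, adjusted p = 0.0310). This omission is given because NU-DHL-1 was seen to go the other way, which favours a call, so that both values are a description. USP1, which removes ubiquitin from the FANCD2-FANCI clamp, was at 0.60 in NU-DHL-1 and between -1.69 and -0.46 in the other lines (-0.51, adjusted p = 0.161). FANCL, the ligase, differed by -0.60 (adjusted p = 0.0797).

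Of the 5 end joining genes 1 was called at 12 h, and the Ku proteins and their kinase were not. XRCC6 (Ku70) went from 12.3 to 12.9 in FARAGE, from 12.2 to 12.2 in NU-DHL-1, from 12.6 to 13.0 in OCI-Ly7, from 12.6 to 13.0 in RIVA and from 12.7 to 13.1 in U2932 (0.31 ± 0.11, adjusted p = 0.0515), and without NU-DHL-1 it was called higher (0.41, adjusted p = 0.00570). Leaving out the line with the lowest value favours such a call, which is a description. The values of XRCC5 (Ku80, 0.09 ± 0.12, adjusted p = 0.552) and PRKDC (-0.01 ± 0.20, adjusted p = 0.969) did not pass the test, and both were lowest in NU-DHL-1, at -0.30 and -0.97. Scaled to the poly-A controls, XRCC6 was called lower (-1.47, adjusted p = 9.14e-06). XRCC4, the scaffold of the ligation step, was called just inside the threshold (-0.73 ± 0.24, adjusted p = 0.0499), with -1.42 in RIVA and -0.31 in OCI-Ly7 at its ends, while its partner LIG4 differed by -0.39 (adjusted p = 0.247). A second XRCC5 probe set above the median level read -0.52, with 4 of 5 lines lower.

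Excision and single-strand break repair held both large falls and the highest mean difference of the 41 genes. PARP2, which makes poly(ADP-ribose) at breaks, went from 9.29 to 6.11 in FARAGE, from 8.52 to 7.34 in NU-DHL-1, from 9.55 to 6.86 in OCI-Ly7, from 9.43 to 6.59 in RIVA and from 9.38 to 6.97 in U2932 (-2.46 ± 0.31, adjusted p = 0.00248). The groups did not overlap, and 2 further PARP2 probe sets read -2.73 and -3.71. PARP1, the main enzyme of the same reaction, differed by 0.00 ± 0.23 (adjusted p = 0.999), with -1.16 in NU-DHL-1 and 0.08 to 0.43 in the other lines.

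ERCC4 (XPF), a nuclease subunit of nucleotide excision repair, went from 7.11 to 3.57 in FARAGE, from 7.76 to 6.78 in NU-DHL-1, from 8.01 to 5.20 in OCI-Ly7, from 6.75 to 5.17 in RIVA and from 7.80 to 6.09 in U2932 (-2.13 ± 0.36, adjusted p = 0.00617). Its obligate partner ERCC1 differed by -0.06 ± 0.21 (adjusted p = 0.831), and the difference between the 2 partners was not tested. SPRTN, a protease for DNA-protein cross-links, differed by -1.23 ± 0.34 (adjusted p = 0.0295) with 0.11 in NU-DHL-1 as its only value above 0, XRCC1 by -0.70 ± 0.23 (adjusted p = 0.0467), ERCC6 by -0.25 (adjusted p = 0.397) and LIG3, the ligase that acts with XRCC1, by -0.25 (adjusted p = 0.428).

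LIG1, the ligase of replication and long-patch excision repair, had the highest mean difference of the 41 genes at 12 h and did not pass the test. It went from 9.06 to 9.95 in FARAGE, from 8.71 to 9.47 in OCI-Ly7, from 9.54 to 10.5 in RIVA and from 9.04 to 10.0 in U2932, but from 8.10 to 7.74 in NU-DHL-1 (0.65 ± 0.26, adjusted p = 0.0804). Without NU-DHL-1 the 4 values lay between 0.76 and 1.00, and LIG1 was called higher (0.90, adjusted p = 0.00893). Leaving out the only line below 0 favours that call, which is a description. Scaled to the poly-A controls, LIG1 too was called lower at 12 h (-1.14, adjusted p = 0.00525).

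**Figure D3:**
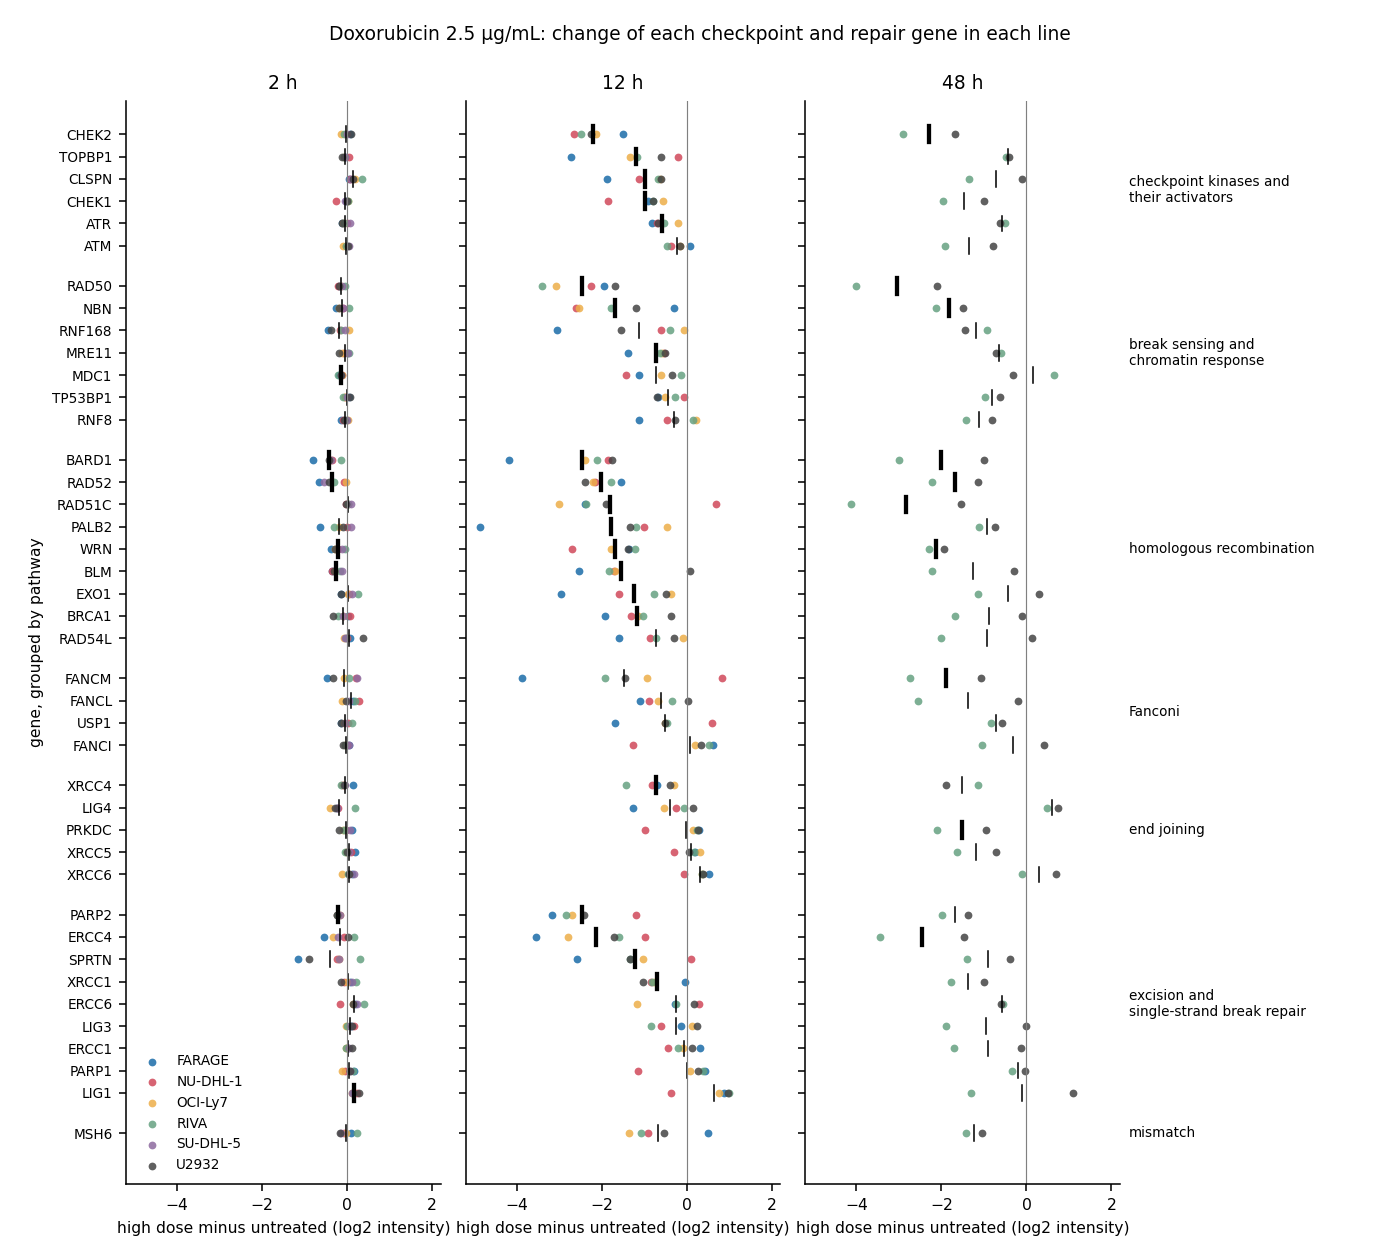
Difference between the high dose and untreated (log2 intensity, horizontal axis) for each of the 41 genes, grouped by pathway and ordered by the 12 h mean, at 2 h, 12 h and 48 h. Points are lines (6, 5 and 2), and the vertical stroke is the mean, thick where the gene was called. At 2 h all means lie between -0.41 and 0.18, at 12 h between -2.47 and 0.65, and FARAGE and NU-DHL-1 are often the outermost points.

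At 2 h of the high dose few of these genes were called, and 4 of the 6 called lower were recombination genes. Of the 41 genes 7 were called, 6 lower and 1 higher, against 10.4% of all genes called, 6.38% lower and 4.03% higher. The 6 were BARD1 (-0.41 ± 0.07, adjusted p = 0.00171), RAD52 (-0.34 ± 0.10, adjusted p = 0.0457), BLM (-0.26 ± 0.05, adjusted p = 0.00319), WRN (-0.22 ± 0.06, adjusted p = 0.0232), PARP2 (-0.21 ± 0.04, adjusted p = 0.00733) and MDC1 (-0.15 ± 0.04, adjusted p = 0.0393). All 6 were lower in 6 of 6 lines, and 5 of them (all but MDC1) were also called at 12 h. The steps were small beside the spread between lines, so that treated and untreated levels overlapped for all 41 genes (0.0506% of all genes did not overlap in this direction). In 7 genes the difference was below 0 in every line, against 8.13% of all genes.

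BARD1 at 2 h differed by -0.80 in FARAGE, -0.35 in NU-DHL-1, -0.39 in OCI-Ly7, -0.14 in RIVA, -0.38 in SU-DHL-5 and -0.42 in U2932. FARAGE was lowest at both times. LIG1 was the only gene called higher at 2 h, by 0.16, 0.23, 0.12, 0.13, 0.12 and 0.28 in the same order of lines (0.18 ± 0.04, adjusted p = 0.0219), while on values scaled to the poly-A controls it was at -0.13. PARP2 lay between -0.25 and -0.17 in the 6 lines. The count of 7 was 4 without FARAGE, 4 without NU-DHL-1 and 3 without U2932. In a fit without the line as a block it was 0, and that fit called 9 genes at 12 h. These counts are given without the share of all genes in the same fits and are not read as particular to these genes.

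The change of the effect between 2 h and 12 h was itself tested in the 5 lines with both times. 15 genes were called, all with a lower effect at 12 h, against 12.5% of all genes called lower, 9.3% higher and 21.8% either way. RAD50 changed by -2.31 ± 0.31, PARP2 by -2.24 ± 0.30, CHEK2 by -2.19 ± 0.24, BARD1 by -2.04 ± 0.31 and ERCC4 by -1.97 ± 0.31. By pathway, 7 of the 9 recombination genes and 4 of the 6 checkpoint genes were called, against 0 of 5 end joining and 0 of 4 Fanconi genes. The count was 8 without OCI-Ly7 and 7 without RIVA. Both are given without the share of all genes in those fits and are not read as particular to these genes.

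At 48 h only RIVA and U2932 had a high-dose array, so that the test had 1 residual degree of freedom before the variances were pooled across genes. Of the 41 genes 10 were called lower and 0 higher, against 13.9% of all genes called, 8.28% lower and 5.66% higher, and the median was -1.63 in RIVA and -0.71 in U2932. RAD50 had gone from 7.47 to 3.46 in RIVA and from 8.58 to 6.48 in U2932 (-3.05 ± 0.55, adjusted p = 0.00606). RAD51C had gone from 9.43 to 5.30 and from 9.39 to 7.85 (-2.83 ± 0.65, adjusted p = 0.0151), ERCC4 from 6.42 to 2.97 and from 7.76 to 6.28 (-2.46 ± 0.51, adjusted p = 0.0106), and CHEK2 from 8.55 to 5.65 and from 8.30 to 6.62 (-2.29 ± 0.55, adjusted p = 0.0181).

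RIVA lay further below its untreated array than U2932 for each of these 4 genes. The other 6 called genes were WRN (-2.12), BARD1 (which fell by 2.00), FANCM (-1.90), NBN (-1.81), RAD52 (-1.68) and PRKDC (-1.53). PRKDC, the kinase of end joining, which at 12 h had been at 0.23 in RIVA and 0.26 in U2932, differed by -2.11 in RIVA and -0.95 in U2932 at 48 h, and XRCC5 by -1.63 and -0.72 without passing the test (adjusted p = 0.0692). In 34 of the 41 genes both lines were lower, against 28.8% of all genes, in 25 both treated levels lay below both untreated levels, against 20.4%, and LIG4 was the only one with both higher. In the 2 lines the poly-A controls had risen by 3.46 and 3.02, with the larger value in RIVA. The actin 3' to 5' difference had risen by 1.05 in RIVA and 0.39 in U2932, and that of GAPDH by 0.39 and 0.095. Without drug, the actin difference rose by 0.13 to 1.88 between 0 h and 48 h (3 lines). The part of these measures was not tested. In a joint fit of all arrays 32 of the 41 were called, 31 of them lower, against 56% of all genes called and 24.3% lower. Without RIVA the joint fit called 21 (19 lower, against 15.3% of all genes) and without U2932 34 (33 lower, against 25.6%). No gene of the 41 was called without the line as a block, or without the variance trend. The share of all genes in these fits is not given, so that this is not read as particular to the 41.

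LIG1 separated the lines at 48 h. It differed by -1.30 in RIVA and 1.10 in U2932, with a mean of -0.10 (adjusted p = 0.924). EXO1 and FANCI were likewise below 0 in RIVA (-1.14 and -1.05) and above 0 in U2932 (0.29 and 0.42), RAD54L dropped by 2.00 in RIVA and was 0.13 higher in U2932, and MDC1 was the reverse, 0.65 in RIVA and -0.32 in U2932.

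The low dose left no called change in these genes. Of the 41 genes 0 were called by limma at 2 h, 12 h or 48 h, and of all genes 0% were called at each time; at an unadjusted p below 0.05 there were 0, 1 (FANCL) and 2 (PRKDC and SPRTN) of the 41. Without U2932, 1 gene of the 41 was called at 48 h, given without the share of all genes in that fit. Means lay between -0.08 and 0.06 at 2 h, between -0.11 and 0.07 at 12 h and between -0.15 and 0.30 at 48 h. On values scaled to the poly-A controls 19 of the 41 were called higher at 12 h, where 30.6% of all genes were called higher and the median of all genes (0.15) lay above that of the 41 (0.14), so that this count is not read as a result about the 41. Set directly against the low dose, the high dose gave 7 called genes at 2 h (10.2% of all genes, 4.22% higher and 5.99% lower), 19 at 12 h (29.1%, 14.8% higher and 14.3% lower) and 13 at 48 h (18.6%, 7.36% higher and 11.2% lower), with RAD50 lowest at 12 h (-2.53) and at 48 h (-3.13). The 7 were 4 without NU-DHL-1, OCI-Ly7 or SU-DHL-5 and 3 without U2932, and the 19 were 9 without OCI-Ly7 or RIVA and 10 without U2932. These drops too are given without the share of all genes and are not read as particular to the 41. These comparisons share their high-dose arrays with those against untreated cells.

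Time in culture alone gave 1 called gene. Between 0 h and 2 h untreated, RAD51C fell by 0.21 on the log2 scale (adjusted p = 0.0465), 1 of 41 against 0.622% of all genes (0.45% lower, 0.172% higher), and 0 of 41 were called by limma at 12 h (0.0152% of all genes) or 48 h (0%), with 6 and 7 at an unadjusted p below 0.05. With FARAGE, NU-DHL-1, RIVA, SU-DHL-5 or U2932 left out in turn, 0 of the 41 were called at 2 h. SPRTN had the lowest value at 48 h (-0.77) and ATM the highest (0.58).

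The untreated lines differed from each other in every one of the 41 genes by limma's F test between lines, where 70.5% of all genes were called. This test takes the untreated arrays of a line at different times as its replicates, so that its p-values measure the spread between times within a line and not between repeated cultures. The range of the line means had a median of 1.24 over the 41 genes, against 1.21 over genes above the median level and 0.76 over all genes. It was smallest for PRKDC, XRCC6 and MRE11 and largest, at 9.13, for MSH6. NU-DHL-1 had the lowest mean of the 6 lines in 14 of the 41 genes and the highest in 3, while U2932 had the highest in 9 and the lowest in 4.

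MSH6, a protein that recognises mismatched bases, was at the bottom of the scale in FARAGE. Its untreated mean was 3.04 ± 0.08 (SD, n = 3 arrays) in FARAGE, 10.5 ± 0.21 (n = 3) in NU-DHL-1, 11.3 ± 0.20 (n = 4) in RIVA, 11.6 ± 0.15 (n = 4) in U2932, 12.0 ± 0.09 (n = 4) in OCI-Ly7 and 12.2 ± 0.07 (n = 3) in SU-DHL-5. On all 7 FARAGE arrays it stayed between 2.96 and 3.63. The gap of 7.45 between FARAGE and the next lowest line was the largest of all 19775 genes in that direction.

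A second MSH6 probe set was also low on the 7 FARAGE arrays, at 2.18 to 3.27 against 5.996 to 10.5 on the other 42 arrays. Another did not follow, with 5.01 to 8.30 in FARAGE and 4.37 to 9.08 elsewhere, and the fourth was at 2.50 to 3.40 on every array. In the RefSeq gene order the protein-coding gene next to MSH6 on one side is FBXO11, a subunit of a ubiquitin ligase. FBXO11 was looked at after the MSH6 values were seen, and it too was at 2.76 ± 0.22 in untreated FARAGE (n = 3 arrays) and between 8.51 and 10.3 in the other lines, the fourth largest gap of all genes.

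The genes beyond this pair were not low in FARAGE. FOXN2, the next on the FBXO11 side, was at 10.3 in FARAGE and 9.28 to 9.90 elsewhere, PPP1R21 at 9.32 against 7.36 to 8.88, and KCNK12, on the other side of MSH6, at 7.56 against 4.55 to 10.0. Whether the FARAGE genome carries a change at this locus was not tested.

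**Figure D4:**
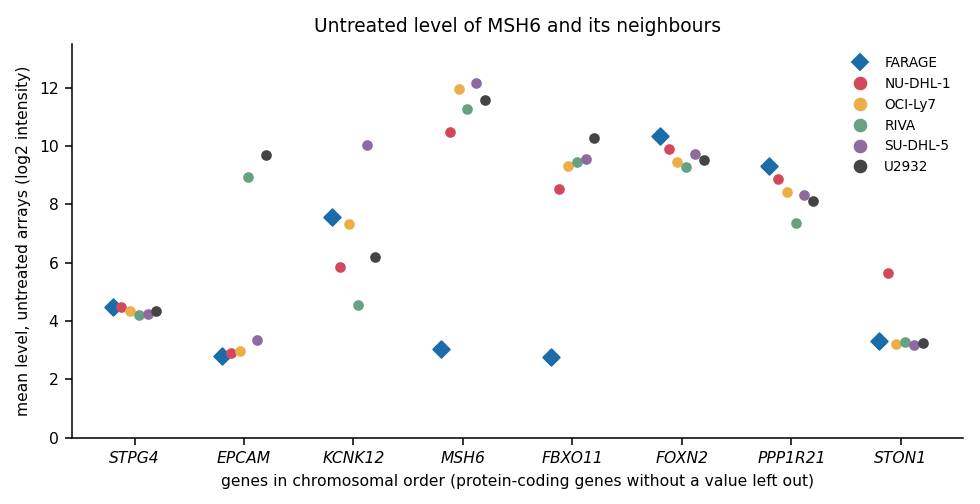
Mean level on untreated arrays (log2 intensity, vertical axis) of MSH6 and of those of its 5 nearest protein-coding genes on either side that have a value, in chromosomal order and by line (FARAGE as diamonds). MSH6 and FBXO11 are at 3.04 and 2.76 in FARAGE and above 8 in the other 5 lines, while FOXN2 and PPP1R21 are highest in FARAGE.

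This level touches the treated comparison. MSH6 at 12 h went from 10.3 to 9.34 in NU-DHL-1, from 11.9 to 10.5 in OCI-Ly7, from 11.2 to 10.2 in RIVA and from 11.4 to 10.8 in U2932, but from 3.11 to 3.63 in FARAGE. The mean over 5 lines did not pass the test (-0.67 ± 0.29, adjusted p = 0.0992), whereas without FARAGE it was -0.97 (adjusted p = 0.0139). FARAGE was singled out after its values were seen, which favours a call, so that the second value is a description. Of the other MSH6 probe sets, the one that was also low in FARAGE read -1.27 at 12 h with 4 of 5 lines lower, the one that was not low there read -2.74 with 5 of 5 lines lower, FARAGE included, and the one at the bottom of the scale on every array read 0.03.

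FARAGE and NU-DHL-1 were often the outermost lines at 12 h. FARAGE had the lowest values of BARD1, PALB2, FANCM, ERCC4, RNF168, EXO1, BLM and TOPBP1, down to -4.86 in PALB2. NU-DHL-1 was lowest in CHEK1, CHEK2, PARP1, PRKDC, FANCI, XRCC5, XRCC6 and LIG1, and it was the only line above 0 in RAD51C (0.69), FANCM (0.82), USP1 (0.60) and SPRTN (0.11). With 1 array per line and condition, differences between lines in the response have no replicate and no test. NU-DHL-1 also had the largest rise of the poly-A controls and of the actin 3' to 5' difference at 12 h, whose part was not tested.

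The genes moved together to different degrees over the 28 within-line differences of all doses and times. The correlation of a gene with the median of the other 40 was highest for BARD1 (r = 0.93), ERCC4 (0.93) and RAD50 (0.92), and lowest for XRCC6 (-0.43), LIG1 (-0.07), LIG4 (0.11) and PARP1 (0.15). The 28 pairs share lines and control arrays, and the values are a description. The 5 genes of the array most like the median of the 41 genes were PTAR1, TMEM116, MRFAP1L2, ANAPC10 and WDHD1 (r = 0.97 to 0.98, 28 pairs), with 12 h differences of -1.31, -1.62, -2.46 and -1.66 for the first 4 and a fall by 2.00 for WDHD1, a replisome protein.

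The other genes of the same pathways were also called lower more often than higher at 12 h. Of 114 measured further repair genes 41 were called lower and 7 higher, with a median of -0.56. Over all genes 14.7% were called lower and 18.2% higher, and the counts of each list below stand beside these shares. Other checkpoint genes had 4 of 13 called lower, led by TIPIN, a fork protection factor (-2.52, adjusted p = 0.00140), and H2AX. Other break response and recombination genes had 14 of 33 lower and 2 higher, with RAD54B at -2.43 and GEN1, a junction resolvase, at -2.28, and RECQL, a helicase, at 1.31 (adjusted p = 0.003). Other Fanconi genes had 7 of 13 lower and 1 higher, with UBE2T, the conjugating enzyme of the pathway, at -1.87 and FANCF at -1.58. Of the 4 genes placed in the Fanconi group above, 0 were called.

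Other end joining genes had 2 of 7 lower (POLM at -1.61 and APTX at -0.89) and 1 higher (APLF at 0.67). Other excision genes had 7 of 34 lower, with the glycosylase NEIL3 at -2.69 and TDP1, which clears topoisomerase adducts and fell by 2.50, and 2 higher, XPC at 0.97 (adjusted p = 0.0264) and DDB1 at 0.61. Of the other mismatch genes PMS1 (-1.57) and MSH3 (-0.90) were called among 3, and of the translesion and post-replication genes 5 of 11 were lower, led by SHPRH (-2.23) and REV1 (-1.80), and 1 was higher. The lists overlap with no member of the 41 and were written with earlier results of these data known.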

How the data were processed

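The deposited table held log2 intensities of 54675 probe sets on 49 Affymetrix arrays; per the submitters' processing notes the authors used R 3.0.2, affy and RMA, and per the labels' protocols total RNA was labelled with a 3' IVT kit. The genome build is not given in the sources used here, and array depth has no counts, so the number of arrays limits the precision. GEO's platform annotation named 1 gene for 41097 probe sets, several for 1801 and none for 11777. Differences were fitted in limma 3.58.1 (R 4.3.3) with the cell line as a block and a variance trend, p-values were adjusted by Benjamini-Hochberg over 19775 genes, and the fit was tested on simulated data. Arrays with the same cell line were paired because they came from the same line, as the labels give it. Outside the pairs, a fit was also made without the block, and on values scaled to the control probe sets.

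The members and lists were chosen with earlier results of these data known. Values by line are printed for ATM, ATR, CHEK1 and CHEK2, for the 4 called genes with the largest rise and the 4 with the largest fall at each high-dose time, and for the largest rise and fall of each pathway at 12 h. Beyond the 41 genes, H2AX and the 2 called genes with the largest change of each list are named. PALB2, PRKDC, USP1, RNF168, EPCAM, FBXO11 and its neighbours, RECQL, XPC, DDB1 and single-line values of further genes were named after their values were seen.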

Additional observations from a re-analysis of the deposited data

Results flagged for a closer look

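In 54 sets of values by line, the differences at 2 h and 12 h of the high dose and the untreated means of the 18 genes given line by line, 8 had 1 line standing apart from the others by Dixon's criterion, which chance alone meets in about 1 of 20 sets. At 12 h these were FARAGE for BARD1 (-4.18) and NU-DHL-1 for CHEK1 (-1.86), FANCI (-1.27), LIG1 (-0.36) and XRCC6 (-0.074). At 2 h they were NU-DHL-1 for CHEK1 (-0.27) and FARAGE for XRCC4 (0.13). In the untreated means it was FARAGE for MSH6 (3.04). Of the 5 sets at 12 h, 4 concern NU-DHL-1. This line had the largest rise of the poly-A controls (2.54) and of the actin 3' to 5' difference (0.73) at that time, whose part was not tested. The 54 sets share lines and arrays, and many of the 18 genes were chosen for large changes. The count of 8 is therefore a description and is not read as an excess over chance.

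For 10 of the 18 genes the effect of the high dose at 12 h differed from that at 2 h by limma's test of the difference, where 21.8% of all genes were called. Many of the 18 genes were chosen for large changes at 2, 12 or 48 h, which favours a large difference between the times, so that this count is a description. The 12 h effect minus the 2 h effect was -2.31 for RAD50, -2.24 for PARP2, -2.19 for CHEK2, -2.04 for BARD1, -1.97 for ERCC4, -1.80 for RAD51C, -1.71 for RAD52, -1.45 for WRN, -1.25 for BLM and -0.93 for CHEK1 on the log2 scale (adjusted p from 0.00173 to 0.0325 over all 19775 genes). The difference was below 0 in 5 of 5 lines for 8 of the 10 genes, and in 4 of 5 for BLM and RAD51C.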

How the results depend on the processing

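The counts are of the 41 genes called, for the high dose against untreated at 2, 12 and 48 h (7, 21 and 10), against the low dose (7, 19 and 13), the low dose against untreated (0, 0 and 0), untreated 2, 12 and 48 h against 0 h (1, 0 and 0), and the 12 h effect against the 2 h effect (15). The share of all genes called moved with the setting as well. Scaled to the poly-A controls nearly all genes were called at 12 h of the high dose. In the joint fit 56% of all genes were called at 48 h against untreated, where 13.9% were called as reported. A count that moves between settings is therefore not read as a result about the 41. Scaled to the poly-A controls they were 28, 41 and 41, then 27, 41 and 41, then 0, 19 and 0, then 2, 1 and 11, and 41; scaled to the hybridization controls 4, 34 and 26 against untreated, 33 and 32 at 12 and 48 h against the low dose, 2 for untreated 2 h, and 35 for the time effect. In a joint fit of all arrays they were 0, 32 and 32, then 0, 33 and 31, 0 for untreated 2 h, 5 for untreated 48 h, and 27. With no replicate block, that is without the line, they were 0, 9 and 0, then 0, 8 and 0, and 0 for untreated 2 h. Without the variance trend 3 were called at 2 h and 0 at 48 h against untreated, 2 and 5 against the low dose, and 0 for untreated 2 h. A 2-fold minimum left 0 at 2 h in the 3 comparisons at that time with any call, the mean over all probe sets gave 6 and 6 at 48 h against untreated and low dose and 0 for untreated 2 h, median centring 0 and genes above the median level 5 for untreated 2 h. Leaving out 1 line gave 3 to 8, 8 to 23 and 21 to 34 against untreated (48 h in the joint fit), 3 to 9, 9 to 23 and 21 to 34 against the low dose, 7 to 19 for the time effect, 0 to 1 for the low dose at 48 h and for untreated 2 h. The count between lines was 41 in the other settings run, 40 scaled to the hybridization controls, 39 scaled to the poly-A controls, and 39 of the 39 tested among genes above the median level.

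Signs turned for LIG1 at 2 h (-0.13, poly-A) and at 12 h (-1.14 poly-A, -0.0083 hybridization), for XRCC6 at 12 h (-1.47 poly-A, -0.34 hybridization, -0.023 mean over probe sets) and for FANCI at 12 h (-1.70 poly-A, -0.57 hybridization, -0.024 centred, and -0.055 to 0.42 with 1 line left out). Of the 21 genes called at 12 h, 20 were called with median centring, 21 with either control scaling and 18 with the mean over probe sets. The lone array of a line at 48 h is assumed to vary like the others in the joint fit. The cause was not tested. Signal near the bottom of the scale limits RAD52, ERCC6 and MSH6 in FARAGE. The same limit holds for single treated levels of ERCC4 (FARAGE at 12 h, RIVA at 48 h), RAD50 (RIVA at 48 h) and FANCM (FARAGE at 12 h).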
